A study of Mus musculus with 12 samples.

Results

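The 39 protein-coding genes of the mouse Hox clusters were followed in RNA sequencing of whole kidneys from mice at postnatal day 15. They were all genes annotated as protein coding whose symbol is Hox, a cluster letter from a to d and a paralog number, 39 of 55487 gene identifiers in the deposited table. By the GENCODE annotation (GRCm38), the 11 Hoxa genes lie on chromosome 6, the 10 Hoxb genes on chromosome 11, the 9 Hoxc genes on chromosome 15 and the 9 Hoxd genes on chromosome 2. Each of 4 groups had 3 libraries: Cep120 KO, Cep120 control, Pkd1 KO and Pkd1 control. Both KO groups come from lines the labels name after Hoxb7. As background, Hoxb7-Cre is a transgene in which a Hoxb7 promoter drives Cre recombinase in the ureteric bud and the collecting duct that grows from it, so other kidney cells of such mice keep the gene. The labels do not say which exons were removed. The sample titles carry "homo" for the KO groups and "het" for both control groups, while the genotype field calls the controls WT. The titles of all 4 groups begin with "hox", but the labels leave out whether the controls also carried the transgene, and the strain and sex of the mice. Cep120 encodes a centrosome protein needed to lengthen centrioles and build cilia, and Pkd1 encodes polycystin-1, a ciliary membrane protein lost in polycystic kidney disease.

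Hox genes encode transcription factors that give cells along the body axis their positional identity. Genes at one end of each cluster (low paralog numbers) act in the head and neck, and those at the other end (high numbers) act in the posterior trunk, limbs and urogenital tract. Paralogs carry the same number in different clusters and overlap in function, and Hox proteins bind DNA together with TALE homeodomain cofactors of the Pbx, Meis and Pknox families. In the mouse kidney, the Hox11 genes are needed to induce the ureteric bud and keep nephron progenitors, the Hox10 genes act in the stroma, and Hoxb7 is a classic marker of the ureteric bud and collecting duct.

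Library totals ran from 23070688 to 31837958 estimated counts. The number of genes with a count was 30289 to 32705 in Cep120 KO libraries, Cep120 control libraries 1 and 2 and Pkd1 control library 3. In the other libraries it was 23532 to 25652. The tubule gene Lrp2 was abundant in all 4 groups, at a mean of 465 CPM in Cep120 KO, 461 CPM in Cep120 control and between 468 and 563 CPM in the Pkd1 control libraries, with 62.0 to 88.0 CPM in the Pkd1 KO libraries. Cep120 itself averaged 17.9 ± 2.16 CPM in Cep120 KO and 16.2 ± 2.5 CPM in Cep120 control libraries. Pkd1 averaged 28.8 ± 6.69 CPM in libraries with the Pkd1 KO label and 17.2 ± 4 CPM in Pkd1 control libraries (SD, n = 3 each). Neither targeted gene was lower in its KO group. Pkd1 was called higher in Pkd1 KO kidneys (log2 fold change 0.74, SE 0.2, edgeR adjusted p = 0.00952). Cep120 was not called in Cep120 KO kidneys (log2 fold change 0.14, SE 0.16), and it was called higher in Pkd1 KO kidneys (0.57, SE 0.16). Counts over the whole gene in whole kidney do not check the labels of a deletion in collecting duct cells, so the groups are named here by their labels. Pkd1 KO library 3 held adrenal RNA, with 438 CPM of Cyp11b1, the enzyme that makes corticosterone, against at most 0.902 CPM in every other Pkd1 library. Xist, the RNA that coats the inactive X chromosome of females, was below 1 CPM in all 3 Pkd1 KO libraries and in Cep120 KO libraries 1 and 2, and between 50 and 184 CPM in the other 7. Xist status and genotype coincide in the Pkd1 line and cannot be told apart there.

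Promoter sequences are shown first for members called lower or higher in Pkd1 KO kidneys that sit in the Hoxa and Hoxd clusters; in the Hoxd cluster, Hoxd8 and its neighbours were called in opposite directions. RefSeq promoter entries (GRCm38.p6) matched 22 of the 39 members, 17 of them among the members tested, with 24 entries in all. Each sequence is the 250 bases before the annotated start on the gene's strand, with motif matches in capitals.
Hoxa9, lower, chr6:52227371-52227620, minus strand: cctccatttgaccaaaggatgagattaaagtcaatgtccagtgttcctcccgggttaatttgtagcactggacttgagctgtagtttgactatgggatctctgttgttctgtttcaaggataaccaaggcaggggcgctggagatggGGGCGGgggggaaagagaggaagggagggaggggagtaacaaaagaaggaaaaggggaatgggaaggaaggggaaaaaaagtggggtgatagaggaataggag
Hoxd8, lower, chr2:74704365-74704614, plus strand: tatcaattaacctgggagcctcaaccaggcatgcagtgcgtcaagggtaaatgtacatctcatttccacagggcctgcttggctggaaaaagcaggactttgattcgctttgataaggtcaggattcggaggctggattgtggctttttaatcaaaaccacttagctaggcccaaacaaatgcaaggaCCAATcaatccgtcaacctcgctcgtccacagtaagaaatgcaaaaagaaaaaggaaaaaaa
Hoxd10, higher, chr2:74691641-74691890, plus strand: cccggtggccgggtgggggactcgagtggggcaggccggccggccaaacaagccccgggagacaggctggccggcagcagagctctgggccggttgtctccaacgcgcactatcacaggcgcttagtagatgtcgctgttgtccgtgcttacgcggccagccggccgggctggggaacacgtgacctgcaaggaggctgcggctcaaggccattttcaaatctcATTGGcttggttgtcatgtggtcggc
Hoxd11, higher, second of 2 starts, chr2:74682073-74682322, plus strand: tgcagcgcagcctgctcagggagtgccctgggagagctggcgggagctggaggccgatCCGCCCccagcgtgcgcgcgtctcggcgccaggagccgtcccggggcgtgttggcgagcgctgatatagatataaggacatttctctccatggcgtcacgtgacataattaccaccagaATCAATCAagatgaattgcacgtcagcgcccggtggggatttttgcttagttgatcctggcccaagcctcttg
The motifs searched on both strands were the TATA box TATAAA, the CCAAT box CCAAT, the GC box GGGCGG and the Hox-Pbx site TGATNNAT. Some of their letters can overlap at one place. Over the 32851 promoter entries of the same length, 12.4% held the TATA letters, 33.8% the CCAAT letters, 32.7% the GC box and 7.68% the Hox-Pbx letters. The called members Hoxb2, Hoxb6, Hoxb7, Hoxb9 (higher) and Hoxa4 (lower) had no entry, so the entries of members called higher are all of Hoxd genes. Among the 5 entries of members called higher, 2 held a CCAAT box, 2 a GC box, 1 the Hox-Pbx letters and 0 a TATA box. Among the 5 entries of members called lower, 2 held a CCAAT box, 1 a GC box, 0 the Hox-Pbx letters and 0 a TATA box. In capitals above, Hoxa9 has a GC box, Hoxd8 and Hoxd10 have a CCAAT box each, and Hoxd11 has a GC box and the Hox-Pbx letters. The GC content of these windows ran from 44.4% for Hoxd8 and 49.6% for Hoxa9 to 60.4% for Hoxd11 and 65.6% for Hoxd10, against a median of 52.4% over all entries. The first start of Hoxd11, not shown, had 44.8% GC and no match to these motifs. Over all their entries, members called higher ran from 44.8% to 65.6% GC, and members called lower from 44.4% to 64.8% (Hoxa3).

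On the TPM scale, which divides by transcript length and so allows genes to be compared, the Hox genes with most RNA were central and posterior members. Over the 12 libraries Hoxa10 had a mean of 70.1 TPM, Hoxd8 52.0 TPM, Hoxb7 28.0 TPM, Hoxd10 24.8 TPM, Hoxa7 24.5 TPM, Hoxa9 22.5 TPM, Hoxb9 21.5 TPM and Hoxc10 15.2 TPM. The order is that of the mean over all groups and differs between them. In Pkd1 KO kidneys Hoxb7 averaged 44.3 TPM and Hoxa7 18 TPM, while Hoxa7 was the higher one at 29.7 against 23.5 TPM in Cep120 KO and 25.8 against 20.1 TPM in Cep120 control kidneys, and the 2 averaged 24.5 and 24.3 TPM in Pkd1 control kidneys, within the spread of the libraries. Neighbours in this order overlapped in their library ranges, as with Hoxa10 (50.3 to 89.9 TPM) and Hoxd8 (44.5 to 63.9 TPM). Hoxb6 followed at 14.9 TPM and Hoxd9 at 9.28 TPM, and the other members averaged under 5 TPM. The group 13 genes Hoxa13, Hoxb13, Hoxc13 and Hoxd13, which act in the hindgut, tail and digits, had at most 11, 1, 7 and 1 counts in any library. The summed level of all 39 members was 329 ± 35.5 TPM in Cep120 KO and 272 ± 21.1 TPM in Cep120 control kidneys. It was 381 ± 7.30 TPM in Pkd1 KO and 304 ± 42.2 TPM in Pkd1 control kidneys (SD, n = 3 each). These sums were taken without edgeR's scaling between libraries (TMM). The TMM factors were 1.019 to 1.097 in Cep120 KO and 0.919 to 0.9821 in Cep120 control libraries. In the Pkd1 line the factors were 0.9949 to 1.044 in KO and 0.8634 to 1.074 in control libraries.

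The ranking depends on which transcripts are counted. For Hoxa10, 25.2% of the TPM of its listed transcripts over all libraries lay in transcripts annotated as protein coding. Counting those alone, Hoxa10 had a mean of 17.6 TPM and ranked 6th by the mean over all groups, behind Hoxd8, Hoxb7, Hoxd10, Hoxa7 and Hoxb9. Its place behind Hoxb9 held in Pkd1 KO kidneys, with 17.1 TPM of Hoxa10 and 44.1 TPM of Hoxb9, and not in the other 3 groups, where Hoxa10 had 16.4 to 20.3 TPM and Hoxb9 13.4 to 14.6 TPM. Its processed transcript Hoxa10-203 alone averaged 42.1 ± 2.22 TPM in Pkd1 KO and 46.2 ± 9.10 TPM in Pkd1 control kidneys. Hoxd11 had 5.61% of its TPM in coding transcripts, Hoxd3 27.0% and Hoxa9 57.3%, while Hoxd8, Hoxd9, Hoxd10, Hoxb6 and Hoxb9 had 100%. The deposited tables do not say how reads of such overlapping transcripts were divided.

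**Figure D1:**
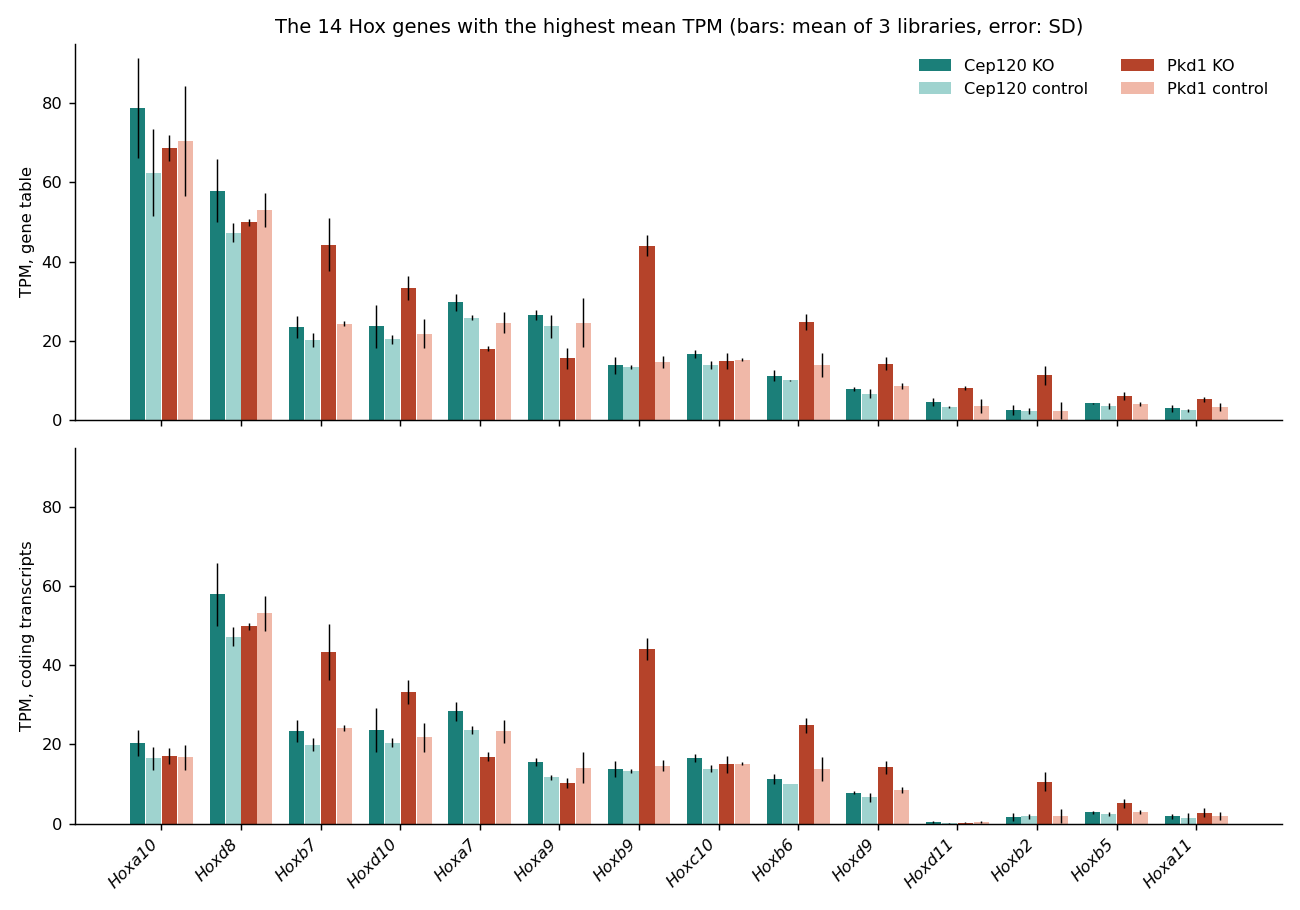
Mean TPM of the 14 Hox genes with the highest level in the 4 groups, over all transcripts of the gene table in the upper panel and over transcripts annotated as protein coding in the lower panel; error bars are the SD of 3 libraries. Hoxa10 leads the upper panel with a mean of 70.1 TPM over all libraries and drops to 17.6 TPM in the lower one, and Hoxb9 reaches 44.1 TPM in Pkd1 KO kidneys, against 14.6 TPM in Pkd1 control kidneys.

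The Pkd1 comparison asked which genes differ in kidneys after loss of polycystin-1. Among the Hox genes called, those of the Hoxb cluster were all higher in Pkd1 KO kidneys, those of the Hoxa cluster all lower, and those of the Hoxd cluster higher except Hoxd8. Of 31 members that passed the filter on low counts, 8 were higher (Hoxb2, Hoxb6, Hoxb7, Hoxb9, Hoxd3, Hoxd9, Hoxd10 and Hoxd11) and 6 lower (Hoxa3, Hoxa4, Hoxa5, Hoxa7, Hoxa9 and Hoxd8) in edgeR's quasi-likelihood test at an adjusted p of 0.05. These 14 make 45.2% of the members tested, near the 44.4% called among all 19890 genes tested, where 22.1% were higher and 22.4% lower. By cluster, 0 Hoxa genes were higher and 5 lower of 9 tested, 4 Hoxb genes higher and 0 lower of 9, 0 Hoxc genes higher and 0 lower of 7, and 4 Hoxd genes higher and 1 lower of 6. The median log2 fold change was -0.99 for Hoxa, 0.61 for Hoxb, -0.19 for Hoxc and 0.48 for Hoxd, against -0.04 over all genes. By paralog number there were 2 higher and 2 lower of 11 tested at numbers 1 to 4, 2 higher and 3 lower of 10 at 5 to 8, and 4 higher and 1 lower of 10 at 9 to 13. The 8 members not tested were Hoxa6, Hoxa13, Hoxb13, Hoxc12, Hoxc13, Hoxd1, Hoxd12 and Hoxd13, each with at most 14 counts in any library. In a bulk sample, fewer cells of a type and less RNA per cell cannot be told apart.

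**Figure D2:**
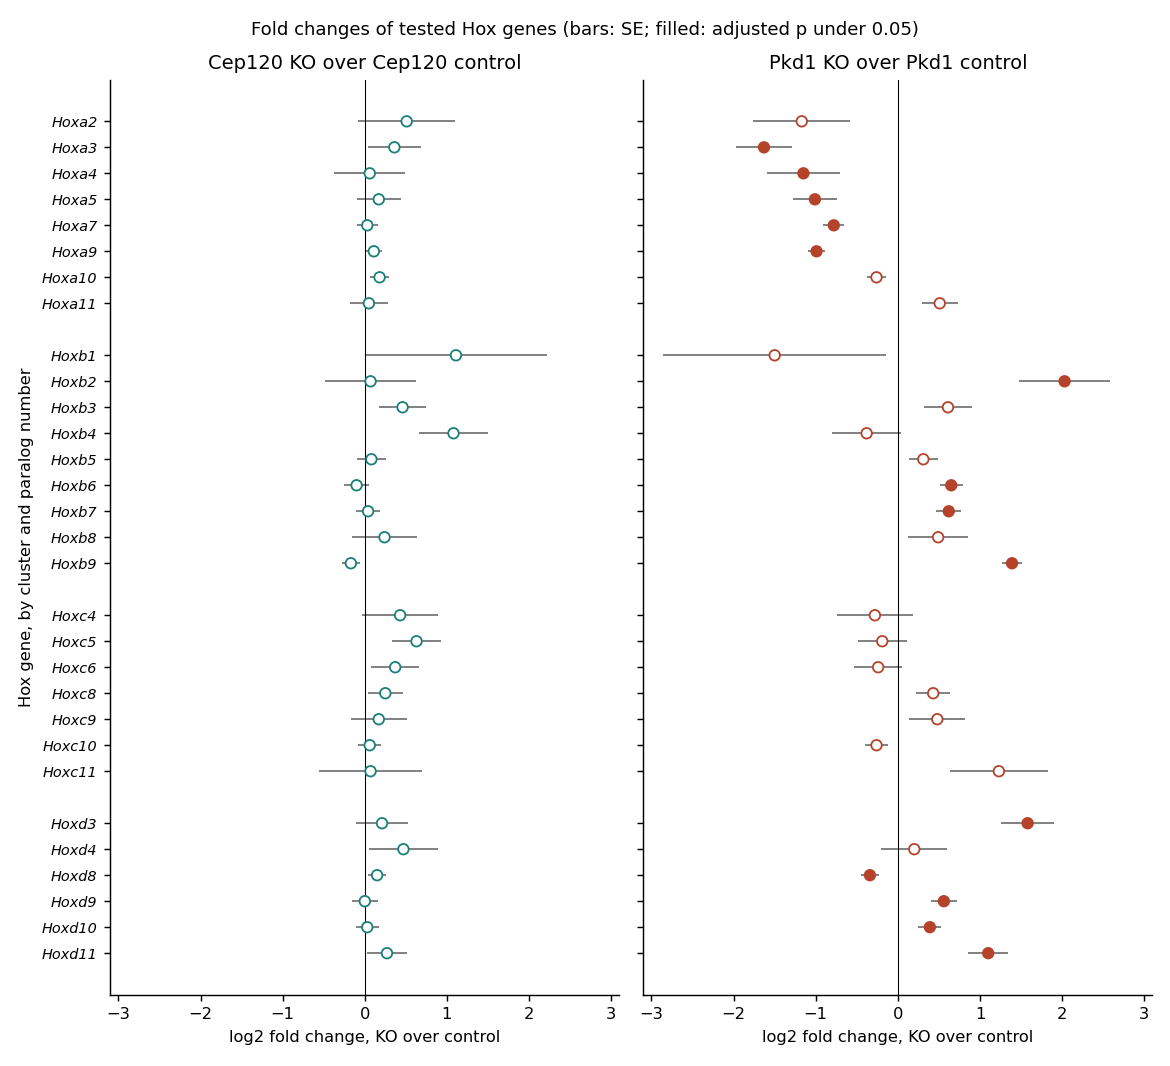
Log2 fold change of CPM with its SE for 30 of the 31 tested Hox genes, by cluster and paralog number, for Cep120 KO over Cep120 control (left) and Pkd1 KO over Pkd1 control (right); filled points have an adjusted p under 0.05. On the right, 5 Hoxa genes and Hoxd8 are filled to the left of 0 and 8 Hoxb and Hoxd genes to the right of it; on the left no point is filled.

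Hoxb9, a paralog of the posterior trunk, had the smallest p among the members. Its level was 82.5, 78.2 and 81.8 CPM in Pkd1 KO libraries and 31.2, 33.5 and 28.1 CPM in Pkd1 control libraries. The groups were far apart, and the 3 Pkd1 KO libraries were close to each other (log2 fold change 1.39 ± 0.12, SE, edgeR adjusted p = 2.64e-06). Its pair of coding transcripts had like levels, at 23.9 ± 1.88 TPM and 20.2 ± 2.13 TPM in Pkd1 KO kidneys, against 7.38 ± 2 TPM and 7.25 ± 3.22 TPM in Pkd1 control kidneys. Hoxb2, a hindbrain patterning gene, had 9.61, 15.8 and 13.2 CPM in Pkd1 KO libraries and 2.93, 0.653 and 5.74 CPM in Pkd1 control libraries. All 3 Pkd1 KO libraries lay above the controls, which spread widely (log2 fold change 2.03 ± 0.55, SE, edgeR adjusted p = 0.00931). Without Pkd1 control library 3 the log2 fold change of Hoxb2 was 2.77, and without Pkd1 control library 2 it was 1.58. Hoxb6 had 20.4, 26 and 22 CPM in Pkd1 KO libraries and 11.9, 16.6 and 15.3 CPM in Pkd1 control libraries. The groups did not overlap (log2 fold change 0.65 ± 0.14, SE, edgeR adjusted p = 0.00274). Hoxb7, after which the labels name both lines, had 33.2, 35.8 and 44.3 CPM in Pkd1 KO libraries and 23.1, 30 and 20.8 CPM in Pkd1 control libraries. The lowest Pkd1 KO library stood just above the highest control (log2 fold change 0.62 ± 0.15, SE, edgeR adjusted p = 0.00453). The count cannot separate the endogenous gene from any transcribed part of a transgene. Of the Hoxb genes not called, Hoxb3, Hoxb5 and Hoxb8 had log2 fold changes of 0.61, 0.31 and 0.49, Hoxb4 had -0.38, and Hoxb1 had at most 17 counts in any library.

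In the Hoxd cluster, Hoxd3, which patterns the neck skeleton, had 5.11, 5.06 and 6.64 CPM in Pkd1 KO libraries and 1.69, 1.61 and 2.31 CPM in Pkd1 control libraries. The groups were well apart (log2 fold change 1.58 ± 0.32, SE, edgeR adjusted p = 0.00155). Most of it, 76.5% in Pkd1 KO and 76.7% in Pkd1 control kidneys by TPM, lay in a transcript with a retained intron. Hoxd9 had 20.9, 20.9 and 17.4 CPM in Pkd1 KO libraries and 13.1, 14.5 and 12.5 CPM in Pkd1 control libraries. The groups did not overlap (log2 fold change 0.56 ± 0.16, SE, edgeR adjusted p = 0.0132). Hoxd8, the second most abundant member, went the other way and had 62.9, 68.4 and 64.2 CPM in Pkd1 KO libraries and 79.6, 90 and 77.3 CPM in Pkd1 control libraries. All Pkd1 KO libraries lay below the controls by a small step (log2 fold change -0.34 ± 0.11, SE, edgeR adjusted p = 0.0236). In TPM, which was not TMM-scaled, Hoxd8 averaged 49.9 ± 0.895 in Pkd1 KO and 53.1 ± 4.32 in Pkd1 control kidneys, and those ranges overlapped. Hoxd4 was not called (log2 fold change 0.20, SE 0.40).

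The Hox10 and Hox11 paralogs, those best known in kidney development, gave 2 calls among 6 genes, Hoxd10 and Hoxd11. Hoxa10 had 70.3, 75.9 and 77 CPM in Pkd1 KO libraries and 95, 83.3 and 89.6 CPM in Pkd1 control libraries. Every Pkd1 KO library lay below the controls, but the gene did not pass the test (log2 fold change -0.26 ± 0.12, SE, edgeR adjusted p = 0.103). Hoxc10 had 23.7, 22.1 and 18.2 CPM in Pkd1 KO libraries and 25, 29.3 and 22.2 CPM in Pkd1 control libraries. Its groups overlapped (log2 fold change -0.26 ± 0.14, SE, edgeR adjusted p = 0.148). Hoxd10 had 38.8, 49.3 and 43.4 CPM in Pkd1 KO libraries and 35.9, 32.3 and 32.1 CPM in Pkd1 control libraries. The lowest Pkd1 KO library was above the highest control (log2 fold change 0.39 ± 0.14, SE, edgeR adjusted p = 0.0373). Hoxa11 had 7.04, 9.99 and 7.93 CPM in Pkd1 KO libraries and 5.83, 5.27 and 6.46 CPM in Pkd1 control libraries. The groups did not overlap, and the gene missed the threshold (log2 fold change 0.51 ± 0.22, SE, edgeR adjusted p = 0.0804). Hoxc11 had 2.3, 1.45 and 0.61 CPM in Pkd1 KO libraries and 0.814, 0.703 and 0.34 CPM in Pkd1 control libraries. Its KO libraries 1 and 2 lay above the control range and KO library 3 inside it (log2 fold change 1.23 ± 0.60, SE, edgeR adjusted p = 0.111). Hoxd11 had 19.4, 20.1 and 17.5 CPM in Pkd1 KO libraries and 5.67, 8.04 and 12.9 CPM in Pkd1 control libraries. All KO libraries were above all controls (log2 fold change 1.10 ± 0.24, SE, edgeR adjusted p = 0.00232). That rise lay in the processed transcript Hoxd11-201, at 7.76 ± 0.366 TPM in Pkd1 KO and 3.08 ± 1.67 TPM in Pkd1 control kidneys, while the coding transcript had 0.203 ± 0.193 TPM in Pkd1 KO and 0.378 ± 0.132 TPM in Pkd1 control kidneys (SD, n = 3 each).

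Among the Hoxa genes, Hoxa9, known for its part in blood cell progenitors, had 17.3, 20.8 and 16.9 CPM in Pkd1 KO libraries and 34.9, 36.6 and 37.6 CPM in Pkd1 control libraries. In CPM none of the Pkd1 KO libraries reached a control (log2 fold change -0.99 ± 0.10, SE, edgeR adjusted p = 1.14e-05). In TPM its groups overlapped, with 14.9, 18.5 and 13.1 TPM in Pkd1 KO libraries and 25.7, 17.8 and 30.1 TPM in Pkd1 control libraries. These TPM values were not TMM-scaled, and the TMM factor was 0.9949 for Pkd1 KO library 2 and 0.8634 for Pkd1 control library 2. Hoxa7 had 19.7, 21.7 and 17.9 CPM in Pkd1 KO libraries and 35.2, 36.8 and 29.6 CPM in Pkd1 control libraries. The groups did not overlap (log2 fold change -0.78 ± 0.13, SE, edgeR adjusted p = 0.00035). Hoxa5, needed for lung and neck skeleton development, had 2.78, 1.93 and 1.62 CPM in Pkd1 KO libraries and 3.06, 5.12 and 4.61 CPM in Pkd1 control libraries. The highest KO library lay close below the lowest control (log2 fold change -1.01 ± 0.27, SE, edgeR adjusted p = 0.00939). Hoxa3, needed for thymus and parathyroid, had 1.15, 0.902 and 0.682 CPM in Pkd1 KO libraries and 1.63, 2.66 and 4.23 CPM in Pkd1 control libraries. The KO libraries were below the controls, which differed among themselves more than the KO libraries did (log2 fold change -1.63 ± 0.34, SE, edgeR adjusted p = 0.0019). Hoxa4 had 0.576, 0.709 and 0.467 CPM in Pkd1 KO libraries and 1.34, 1.46 and 1.13 CPM in Pkd1 control libraries. The groups did not overlap at this low level, and the call was near the threshold (log2 fold change -1.15 ± 0.44, SE, edgeR adjusted p = 0.0478). Hoxa2 was not called (log2 fold change -1.17, SE 0.59). Of the 7 Hoxc genes tested, Hoxc4, Hoxc5, Hoxc6 and Hoxc10 had log2 fold changes of -0.28, -0.19, -0.24 and -0.26, and Hoxc8, Hoxc9 and Hoxc11 had 0.43, 0.48 and 1.23. Hoxc8 alone among them lay above the controls in all 3 Pkd1 KO libraries, with 4.23, 4.38 and 5.31 CPM in Pkd1 KO and 3.45, 3.06 and 3.78 CPM in Pkd1 control libraries (edgeR adjusted p = 0.107).

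Within a library, the ratio of paralogs gives a view that does not depend on scaling between libraries. The TPM ratio of Hoxb9 to Hoxa9 was 3.08, 2.21 and 3.46 in Pkd1 KO libraries, against 0.591, 0.730 and 0.518 in Pkd1 control libraries. Hoxb9 thus exceeded Hoxa9 in each Pkd1 KO library and in no Pkd1 control library. The same ratio was 0.454, 0.543 and 0.552 in Cep120 KO and 0.568, 0.517 and 0.627 in Cep120 control libraries. The ratio of Hoxb7 to Hoxa7 was 2.32, 2.14 and 2.95 in Pkd1 KO libraries, against 0.869, 1.11 and 1.02 in Pkd1 control libraries. As a share of the summed Hox TPM, the Hoxa cluster held 28.7 to 29.9% in Pkd1 KO, against 40.1 to 44.5% in Pkd1 control libraries. The Hoxb cluster held 34.4 to 37.4% in Pkd1 KO and 19.1 to 22.2% in Pkd1 control libraries. Hoxc and Hoxd shares of Pkd1 KO libraries, 5.83 to 7.28% and 28.0 to 29.4%, lay within or close to those of Pkd1 control libraries, 7.09 to 7.75% and 28.7 to 29.9%. Summed over each cluster, Hoxb genes had 135 ± 8.44 TPM in Pkd1 KO and 63.2 ± 8.05 TPM in Pkd1 control kidneys, and Hoxa genes had 111 ± 3.39 TPM in Pkd1 KO and 130 ± 23 TPM in Pkd1 control kidneys (SD, n = 3 each).

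**Figure D3:**
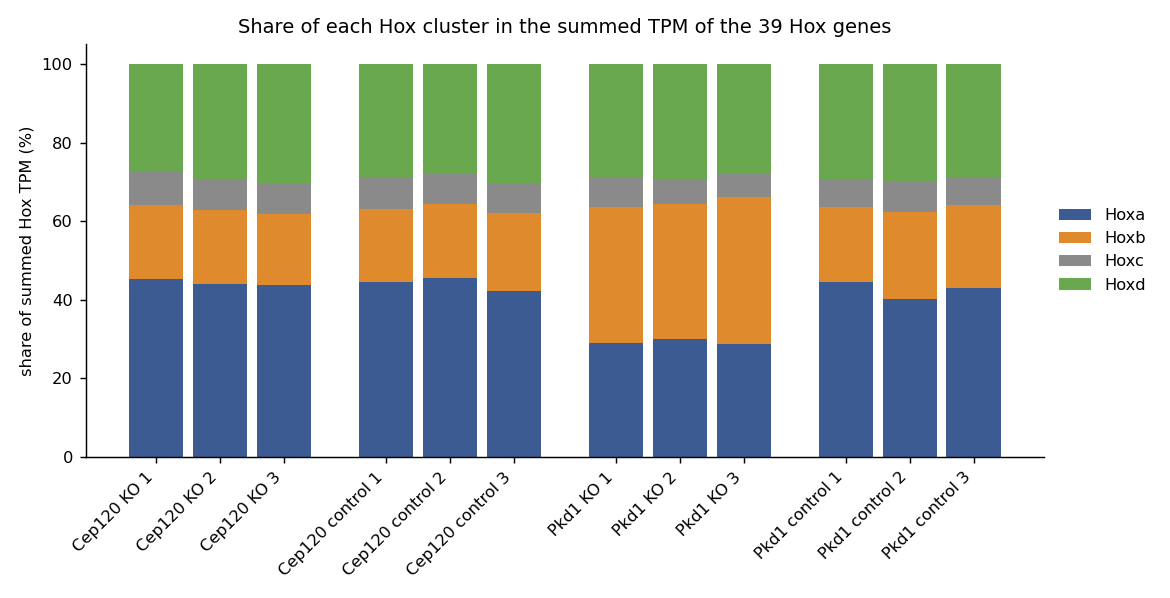
Share of each cluster in the summed TPM of the 39 Hox genes, 1 bar a library, in percent. The Hoxb share is 34.4 to 37.4% in the 3 Pkd1 KO libraries and 18.1 to 22.2% in the other 9, and the Hoxa share is 28.7 to 29.9% in Pkd1 KO and 40.1 to 45.6% elsewhere.

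**Figure D4:**
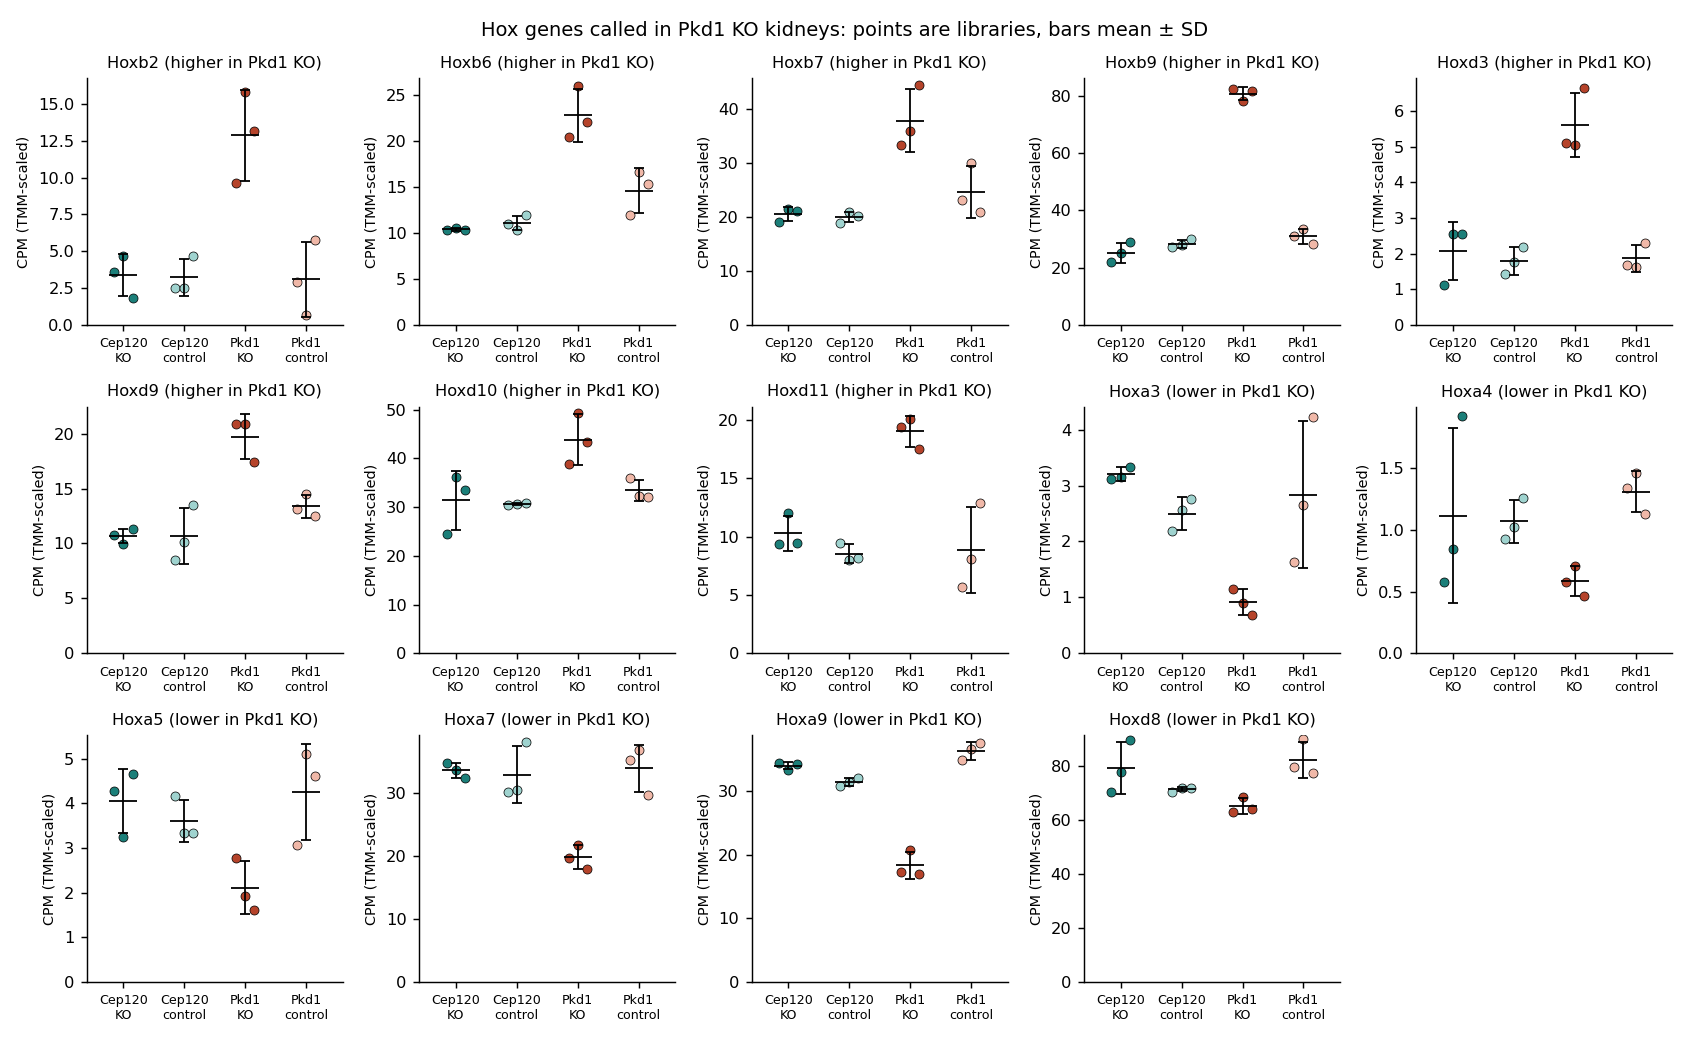
TMM-scaled CPM of the 14 Hox genes called in the Pkd1 comparison, in each of the 12 libraries, with the mean and SD of each group. The 3 Pkd1 KO libraries lie above all Pkd1 control libraries in 8 panels and below them in 6, and Hoxb9 reaches 78.2 to 82.5 CPM in Pkd1 KO, against 28.1 to 33.5 CPM in Pkd1 control libraries.

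Of the 31 tested members, 13 lay above the controls in all 3 Pkd1 KO libraries and 8 below them in all 3, where 27.4% and 25.5% of all tested genes did so. Without Pkd1 KO library 3, which held the adrenal RNA, 7 members were higher and 4 lower, Hoxd10, Hoxa4 and Hoxd8 were no longer called, and 37.6% of all genes were called. With Xist presence as a term in the fit, which then rests on the Cep120 libraries to separate Xist from genotype, 2 were higher (Hoxb9 and Hoxd3) and 2 lower (Hoxa7 and Hoxa9), and 10.1% of all genes were called.

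Several members share annotated exons with other transcripts, and the sources used here do not say whether counting used the strand. Hoxa3 and Hoxa7 overlap the antisense gene Hoxaas3, Hoxb2 overlaps Hoxb3os, and Hoxd3 overlaps Haglr on the opposite strand and Hoxd4 on the same one. Hoxd10 and Hoxd11 both overlap Gm28309. Hoxa3, Hoxa4, Hoxa7, Hoxb2, Hoxd3, Hoxd10 and Hoxd11 had deposited counts that were not whole, which can come from reads divided among features, and their values are uncertain to that extent. Hoxa5, Hoxa9, Hoxb6, Hoxb7, Hoxb9, Hoxd8 and Hoxd9 had whole counts in all libraries. Among the noncoding genes of the clusters, Haglr was higher in Pkd1 KO kidneys, at 3.19 ± 0.454 CPM against 0.855 ± 0.426 CPM in Pkd1 control kidneys (log2 fold change 1.90, SE 0.38, edgeR adjusted p = 0.00154). Hoxb5os was lower, with 9.51, 12.9 and 9.51 CPM in Pkd1 KO and 21.6, 30.1 and 18.1 CPM in Pkd1 control libraries (log2 fold change -1.13, SE 0.24, edgeR adjusted p = 0.00239). Hoxb5 on the opposite strand was not called (log2 fold change 0.31, SE 0.18). Hoxaas3 (log2 fold change -0.04), Hoxb3os (-0.54), Hoxd3os1 (0.05), Hotairm1 (0.53), Hoxa11os (0.27) and Hoxaas2 (-0.54) were not called.

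The Cep120 comparison asked which genes differ after loss of the centrosome protein. No Hox gene was called in Cep120 KO kidneys, where 0 of 19890 genes (0%) passed edgeR's test. At an unadjusted p under 0.05, edgeR and DESeq2 had 1 member each and limma-trend 3, against 1201, 1328 and 1507 genes in all; DESeq2 called 21 genes and 0 members. The member with the smallest p in edgeR was Hoxb4, which had 5.27, 7.36 and 6.35 CPM in Cep120 KO libraries and 2.77, 3.66 and 2.52 CPM in Cep120 control libraries. All Cep120 KO libraries lay above the controls (log2 fold change 1.08 ± 0.42, SE, edgeR adjusted p = 0.757). In the Pkd1 line Hoxb4 had 2.23, 3.29 and 2.12 CPM in Pkd1 KO libraries and 1.92, 1.71 and 6.31 CPM in Pkd1 control libraries, and those groups overlapped. Hoxb4 patterns the neck vertebrae. When no filter on low counts was applied, Hoxb4 passed in Cep120 KO kidneys (adjusted p = 0.0477), in a fit where 344 genes did.

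In Cep120 KO kidneys 28 of 31 log2 fold changes were above 0, none of them called in edgeR with the filter, with a median of 0.17 against 0.01 over all genes. Of the 31, 5 (Hoxa3, Hoxa9, Hoxb4, Hoxc5 and Hoxd4) lay above the controls in all 3 Cep120 KO libraries and 0 below, where 8.64% and 7.88% of all tested genes did so. By paralog number the median was 0.43 at 1 to 4, 0.16 at 5 to 8 and 0.06 at 9 to 13. Hoxb7, the collecting duct marker, had 19, 21.5 and 21 CPM in Cep120 KO libraries and 18.9, 20.8 and 20.1 CPM in Cep120 control libraries. Hoxb9 had 21.9, 25 and 28.9 CPM in Cep120 KO libraries and 27.3, 27.8 and 29.9 CPM in Cep120 control libraries. Both genes overlapped between the groups. Hoxa9 had 34.4, 33.4 and 34.3 CPM in Cep120 KO libraries and 30.9, 31.5 and 32.1 CPM in Cep120 control libraries, a step that separated the groups but was small (log2 fold change 0.11 ± 0.10, SE, edgeR adjusted p = 0.804). Hoxa7 had 34.7, 33.6 and 32.4 CPM in Cep120 KO libraries and 30.1, 30.4 and 38.1 CPM in Cep120 control libraries. Hoxd8 had 70.4, 77.9 and 89.6 CPM in Cep120 KO libraries and 70.5, 71.9 and 71.7 CPM in Cep120 control libraries. In both genes the groups overlapped. Hoxa10 had 73.4, 92.6 and 94.7 CPM in Cep120 KO libraries and 78.6, 84.9 and 66.9 CPM in Cep120 control libraries. Hoxc10 had 23.4, 23.8 and 25.1 CPM in Cep120 KO libraries and 20.7, 22.5 and 26.2 CPM in Cep120 control libraries. Hoxd10 had 24.5, 36.1 and 33.5 CPM in Cep120 KO libraries and 30.5, 30.6 and 30.8 CPM in Cep120 control libraries. None of the Hox10 genes separated the groups. Hoxa11 had 5.89, 4.72 and 3.41 CPM in Cep120 KO libraries and 3.95, 5.33 and 4.26 CPM in Cep120 control libraries. Hoxc11 had 0.154, 0.716 and 0.674 CPM in Cep120 KO libraries and 0.63, 0.407 and 0.446 CPM in Cep120 control libraries. Hoxd11 had 9.35, 12 and 9.48 CPM in Cep120 KO libraries and 9.45, 8.02 and 8.15 CPM in Cep120 control libraries. The Hox11 genes overlapped as well, and their log2 fold changes were 0.05 (SE 0.23), 0.07 (SE 0.63) and 0.27 (SE 0.24). The Hoxa and Hoxb shares of summed Hox TPM were 43.8 to 45.3% and 18.1 to 18.8% in Cep120 KO, against 42.1 to 45.6% and 18.7 to 19.9% in Cep120 control libraries.

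The response of the Pkd1 line was then set against that of the Cep120 line, as the Pkd1 KO log2 fold change minus the Cep120 KO one. In this test 3 of 31 members had a higher response in the Pkd1 line (Hoxb6, Hoxb9 and Hoxd3) and 5 a lower one (Hoxa3, Hoxa5, Hoxa7, Hoxa9 and Hoxd8), 25.8% of those tested against 28.1% over all genes. Hoxb9 differed by 1.55 (SE 0.16, edgeR adjusted p = 5.69e-05) and Hoxa9 by -1.10 (SE 0.14, edgeR adjusted p = 0.00021). Hoxb7 differed by 0.58 (SE 0.21, edgeR adjusted p = 0.0558), so its response was not shown to differ between the lines. Of the other members called in Pkd1 KO kidneys, Hoxb2, Hoxd9, Hoxd10, Hoxd11 and Hoxa4 had adjusted p-values of 0.0728, 0.0819, 0.191, 0.0786 and 0.151 for the difference. No Hoxc gene passed (0 of 7 tested), and the median difference was -1.10 for Hoxa and 0.25 for Hoxb, against -0.06 over all genes. Leaving out Cep120 control library 2 or 3, or Pkd1 KO library 2 or 3, reduced the 8 members to 5.

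Proteins that work with or regulate Hox genes were listed by role. Of 9 TALE cofactor genes tested, 4 were higher and 1 lower in Pkd1 KO kidneys (median log2 fold change 0.38); over all genes tested, 22.1% were higher and 22.4% lower, and the counts of the lists that follow stand against the same shares. Meis2 had 23.7, 22.6 and 20.6 CPM in Pkd1 KO libraries and 33.7, 32.8 and 48.6 CPM in Pkd1 control libraries (log2 fold change -0.78 ± 0.15, SE, edgeR adjusted p = 0.00104), and the groups did not overlap. Meis3 had 6.09, 5.51 and 4.67 CPM in Pkd1 KO libraries and 1.6, 1.26 and 2.61 CPM in Pkd1 control libraries (log2 fold change 1.57 ± 0.33, SE, edgeR adjusted p = 0.0019), with the KO libraries above all controls. Pknox2 (log2 fold change 0.95, SE 0.24) and Pbx4 (1.35, SE 0.40) were also higher. Of 25 Polycomb and trithorax genes, whose products keep Hox genes silent or active, 9 were higher and 6 lower (median 0.06). Rnf2, which ubiquitinates histone H2A, rose (log2 fold change 0.87, SE 0.13), as did Ezh1 (0.96, SE 0.15), the Polycomb reader Cbx7 (1.23, SE 0.21) and the H3K27 demethylase Kdm6b (0.63, SE 0.11). Ezh2 was lower at 11.9 ± 0.904 CPM in Pkd1 KO and 17.9 ± 0.725 CPM in Pkd1 control kidneys (log2 fold change -0.60, SE 0.12); it was named after its values were seen, as the methyltransferase relative of Ezh1.

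Of 17 genes of the retinoic acid pathway, which activates anterior Hox genes in embryos, 5 were higher and 3 lower in Pkd1 KO kidneys (median 0). Aldh1a1, which makes retinoic acid, had 53.8, 35.1 and 59 CPM in Pkd1 KO libraries and 6.06, 6.88 and 7.6 CPM in Pkd1 control libraries (log2 fold change 2.85 ± 0.25, SE, edgeR adjusted p = 4.07e-06). The binding protein gene Crabp2 had 10.5, 9.66 and 10 CPM in Pkd1 KO libraries and 1.01, 1 and 0.529 CPM in Pkd1 control libraries (log2 fold change 3.57 ± 0.36, SE, edgeR adjusted p = 1.06e-05). Both genes stood far above the controls in every Pkd1 KO library. The receptor gene Rara was higher (log2 fold change 0.94, SE 0.17) and the retinol transporter gene Stra6 lower (-1.55, SE 0.32). The 8 Cdx, Evx and related genes were too low to test. Of 9 tested partners and targets of Hox11 proteins in the kidney, 4 were higher and 2 lower (median 0.55). The nephron progenitor gene Cited1 had 2, 1.68 and 1.97 CPM in Pkd1 KO libraries and 9.71, 11.7 and 8.54 CPM in Pkd1 control libraries (log2 fold change -2.40 ± 0.23, SE, edgeR adjusted p = 5.82e-06), and Sall1, another progenitor gene, was lower (log2 fold change -0.95, SE 0.14). Pax2 (0.89, SE 0.16) and the integrin gene Itga8 (0.88, SE 0.15) were higher. In Cep120 KO kidneys 0 members of these lists were called.

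Marker lists of kidney cell types moved with the Pkd1 comparison, and their part in the Hox results was not tested. Of 14 collecting duct markers, 12 were higher and 1 (Calb1) lower in Pkd1 KO kidneys. The summed collecting duct level was 3890 to 5670 CPM in Pkd1 KO, against 1590 to 1840 CPM in Pkd1 control libraries. Hoxb7 marks the same cells. Of 14 stromal markers, 10 were higher and 0 lower, at 5950 to 9490 CPM in Pkd1 KO and 2040 to 3290 CPM in Pkd1 control libraries. Of 11 nephron tubule markers, 0 were higher and 10 lower, at 1150 to 1800 CPM in Pkd1 KO and 5420 to 8330 CPM in Pkd1 control libraries. Of 9 ureter and urothelium markers, 2 were higher and 0 lower (190 to 520 CPM in Pkd1 KO, against 124 to 187 CPM in Pkd1 control libraries), and these 2 were the smooth muscle genes Myh11 (log2 fold change 2.56, SE 0.23) and Des (1.75, SE 0.22). The urothelial gene Upk2, not called, had 6.57, 0.387 and 0.323 CPM in Pkd1 KO libraries and 3, 4.92 and 6.5 CPM in Pkd1 control libraries, so Pkd1 KO library 1 stood apart from the other two. Without Pkd1 KO library 1, 8 Hox genes were higher and 4 lower, and 35.4% of all genes were called. Of 8 macrophage markers, 7 were higher and 0 lower (2530 to 3080 CPM in Pkd1 KO, against 442 to 1440 CPM in Pkd1 control libraries). Of 7 tested adrenal, muscle and fat markers, 4 were higher and 1 lower (4.86 to 936 CPM in Pkd1 KO, against 35.3 to 269 CPM in Pkd1 control libraries). The collecting duct sodium channel gene Scnn1b had 346, 334 and 308 CPM in Pkd1 KO libraries and 76.8, 76.3 and 67.4 CPM in Pkd1 control libraries (log2 fold change 2.16 ± 0.11, SE, edgeR adjusted p = 1.6e-07). The distal tubule transporter gene Slc12a3 had 39, 48.2 and 43.8 CPM in Pkd1 KO libraries and 241, 246 and 216 CPM in Pkd1 control libraries (log2 fold change -2.43 ± 0.12, SE, edgeR adjusted p = 1.6e-07). Every Pkd1 KO library stood apart from the controls in both. Acta2, of smooth muscle and myofibroblasts, was higher (log2 fold change 2.94, SE 0.38), as was the macrophage receptor gene Csf1r (1.74, SE 0.22). No marker of these lists was under 0.1 CPM in all 12 libraries. In Cep120 KO kidneys 0 markers of any list were called, and the summed collecting duct level was 1330 to 1720 CPM in Cep120 KO, against 1590 to 1710 CPM in Cep120 control libraries. The summed tubule level was 6760 to 8130 CPM in Cep120 KO and 6720 to 8450 CPM in Cep120 control libraries.

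**Figure D5:**
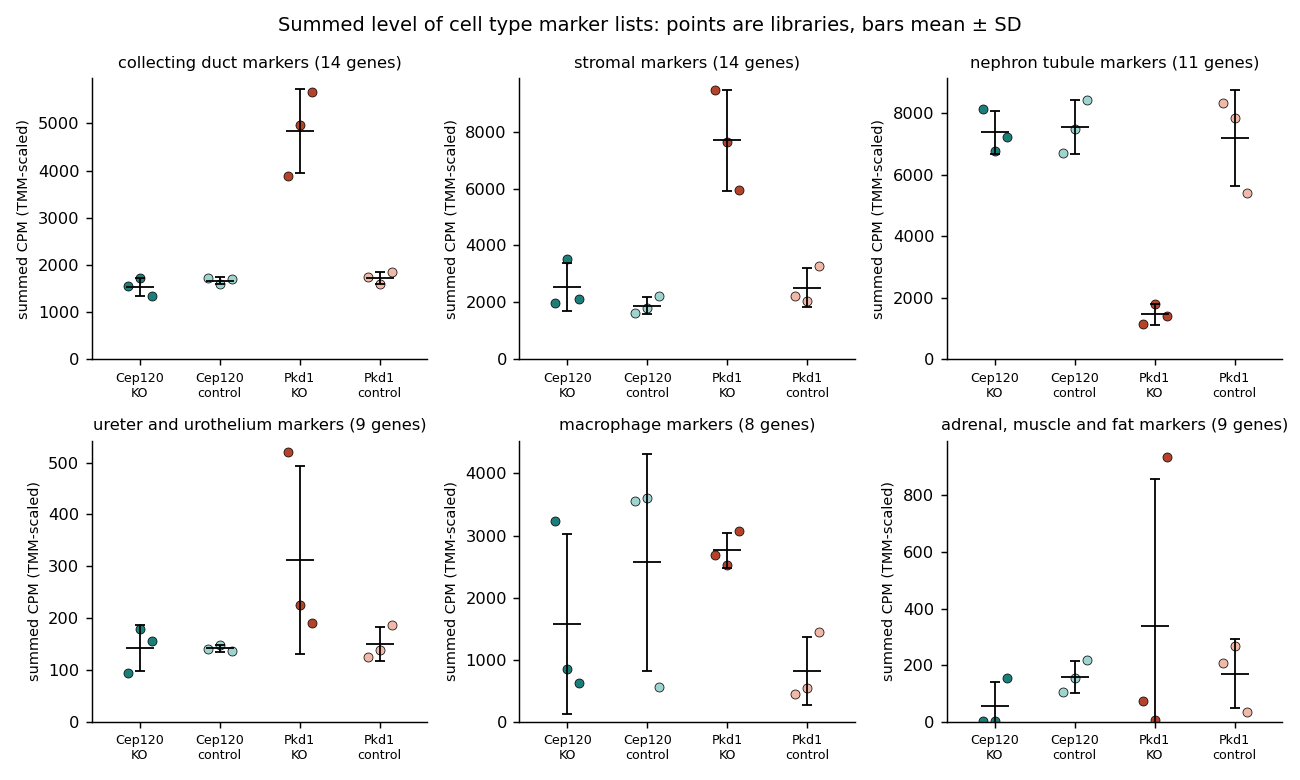
Summed TMM-scaled CPM of 6 marker lists in each of the 12 libraries, with the mean and SD of each group. Collecting duct and stromal sums are higher and nephron tubule sums lower in all 3 Pkd1 KO libraries than in any Pkd1 control library, and the adrenal, muscle and fat sum is 936 CPM in Pkd1 KO library 3.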

How the data were processed

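RNA sequencing of 12 whole-kidney libraries was analysed from tables the authors deposited. Per the submitters' processing notes, the tools were Salmon 0.8.2, STAR 2.5.1a, featureCounts 1.4.6-p5 of the Subread package, and bcl2fastq, with mm9 as the build. The tool behind each table and the strand setting are not given in the sources used. Per the labels' protocols, total RNA from ground kidneys went into a SMARTer cDNA kit for low input. The gene table the authors deposited holds estimated counts, of which 21.6% of genes have a value that is not whole (tolerance 1e-06). The deposited gene and transcript TPM values, scaled by the authors to length and library size, were used for levels between genes and the deposited moderated log2 CPM only as an alternative input.

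Estimated counts were rounded, 287 repeated lines were dropped, and genes were filtered with edgeR's filterByExpr, which left 19890. TMM-scaled CPM gave the levels compared between groups, except where TPM is named. The main test was edgeR 4.0.16 (R 4.3.3), a quasi-likelihood fit over 12 libraries in 4 groups, with Benjamini-Hochberg adjustment over all genes tested and a threshold of 0.05. The fit was tested on simulated data. Alternatives used DESeq2 1.42.0, limma 3.58.1, other scaling and filters, added terms and left-out libraries. Whether a group's 3 libraries are 3 animals is not in the labels, so p-values measure only the spread between libraries. Replicate numbers were not shown to pair the samples, and the main fit did not use them.

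The members and the gene lists were chosen with earlier results of these data known. Values by library were printed for Hoxb7, the Hox10 and Hox11 paralogs, the 8 members with the highest mean TPM, and up to 8 members called in each direction per comparison. Up to 4 genes with the smallest p in the Pkd1 comparison were named from each other list. Ezh2 was named outside that rule after its values were seen, and Calb1 and Upk2 were also named outside it. Noncoding genes of the clusters were described as possible sources of shared reads. Exon overlaps came from the GENCODE annotation of GRCm38, another build than the authors', and were used for names and neighbours only. Values of 1 tested member and of 1 list gene are not reported here.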

Additional observations from a re-analysis of the deposited data

Results flagged for a closer look

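For 8 Hox genes the response to the knockout differed between the lines by edgeR's test of the difference itself, given here as the Pkd1 KO response minus the Cep120 KO response on the log2 scale. Hoxb9 differed by 1.55, Hoxd3 by 1.37 and Hoxb6 by 0.75, all higher in the Pkd1 line. Hoxa3 differed by -1.99, Hoxa5 by -1.18, Hoxa9 by -1.10, Hoxa7 by -0.81 and Hoxd8 by -0.49, all lower in the Pkd1 line. The adjusted p was 5.69e-05 for Hoxb9 and 0.00021 for Hoxa9, and at most 0.0393 among the 8. Of 22 alternatives, the difference kept its call in 12 for Hoxd8, 10 for Hoxd3 and 9 for Hoxa5, and in at least 21 for the other five. In the Cep120 line the log2 fold changes of these 8 genes lay between -0.17 and 0.36, with none called. The 2 lines also differ in Xist: 2 of 3 Cep120 KO libraries and all 3 Pkd1 KO libraries had less than 1 CPM, and every control library had at least 50 CPM. Within the Pkd1 line Xist and genotype cannot be told apart.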

How the results depend on the processing

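Of the 14 Hox genes called in Pkd1 KO kidneys, Hoxa7, Hoxa9, Hoxb9 and Hoxd3 stayed called in all 23 alternatives, and Hoxa3, Hoxa5, Hoxb2, Hoxb6, Hoxb7 and Hoxd11 in 22. The Xist term was set by Cep120 KO library 3 against libraries 1 and 2 of that group. Those 6 were lost when Xist presence was a term, a fit with 2 members higher and 2 lower, in which Hoxa4 reversed to 0.26 (adjusted p = 0.822). It called 10.1% of all genes. In that fit the log2 fold change was -1.54 for Hoxa3, -0.70 for Hoxa5, 0.64 for Hoxb6, 0.67 for Hoxb7, 0.93 for Hoxd11, 0.87 for Hoxb2 (against 2.03) and -0.06 for Hoxd8 (against -0.34), with standard errors of 0.18 to 0.96. Hoxd9 kept its call in 21 alternatives, Hoxd8 in 17, and Hoxa4 and Hoxd10 in 8 each. Leaving out 1 library at a time gave 6 to 8 members higher and 4 to 6 lower in Pkd1 KO kidneys, 0 in Cep120 KO kidneys, and 5 to 9 with a different response in the lines. In the Pkd1 comparison those fits called 35.1 to 44.6% of all genes, against 44.4% in the main fit. With no filter on low counts, 1 member (Hoxb4) was higher in Cep120 KO kidneys; the cause was not tested. Hoxa3, Hoxa7, Hoxa9 and Hoxb9 kept a different response in all 22 alternatives, Hoxb6 in 21, Hoxd8 in 12, Hoxd3 in 10 and Hoxa5 in 9. All-gene median log2 fold changes for Pkd1 were -0.04 with TMM, -0.07 with RLE and -0.13 with upper quartile scaling. The replicate numbers were not shown to pair the samples. Correlations of same-numbered libraries were 0.18, -0.05 and 0.15 in the Cep120 line, against -0.2 to 0.11 for KO and control libraries of different number. In the Pkd1 line they were -0.10, -0.04 and -0.14, against -0.05 to 0.13. With so few libraries, these values cannot settle whether the Cep120 libraries are paired. With the replicate block, 7 members were higher and 5 lower in Pkd1 KO kidneys, 0 were called in Cep120 KO kidneys, and 6 differed between the lines. With a term for libraries with more than 28000 genes counted, 9 were higher and 7 lower in Pkd1 KO kidneys, and 7 differed between the lines. Without both replicate 3 controls, 8 were higher and 5 lower in Pkd1 KO kidneys, and 8 differed between the lines. For the Pkd1 comparison, the shares of all genes called in these fits were 39.4%, 47.6% and 44.4% in that order. Depth limits members with few counts: the 8 not tested had at most 14 counts in a library.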
